A study of Mus musculus with 3 samples.

Results

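The cytosolic ribosomal protein genes encode the proteins of the large and small subunits of the ribosomes that translate nuclear messages. They were followed in the bone marrow of castrated mice given testosterone or placebo. Members were the genes with a value on all 3 arrays whose symbol is a ribosomal protein name of the Rpl, Rps or Rplp series, and Rps6k kinases and pseudogenes were left out. This gave 42 genes of 3462 with a value on all arrays, 29 of the large subunit and 13 of the small subunit. Both mice of a pair were C57BL/6 and castrated. Castration was at 7 weeks of age, and the animals were 17 weeks old at sampling, per the labels. One mouse of each pair carried a pellet with 12.5 mg testosterone made to release over 60 days, the other a placebo pellet, for 4 weeks. Each of 3 two-colour arrays, T1, T2 and T3, compared the marrow RNA of the 2 mice of a pair, so that n = 3 pairs. Testosterone RNA carried Cy5 on T1 and T3 and Cy3 on T2. No cell type was isolated, and RNA came from pulverized bone per the labels' protocols, while the labels name the tissue as bone marrow.

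Each value was taken as the log2 of testosterone over placebo RNA, so a value below 0 means less RNA with testosterone. The log base is inferred from the range of the values. The direction is likely but not settled, since it rests on the study naming testosterone as the experimental channel. In such a tissue sample, fewer cells of a type and less RNA per cell cannot be told apart. Ratios give no RNA level, so the tissue label could not be checked against absolute marker levels. Marker genes of the marrow lineages had values on all arrays for 10 of 28 B-lineage, 11 of 39 erythroid and 11 of 35 neutrophil genes. T-cell and NK-cell markers had none of 24.

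Ribosomal proteins bind ribosomal RNA in fixed proportions, and cells make them in a coordinated way. Their messages start with a cytosine followed by a stretch of pyrimidines, the 5′ terminal oligopyrimidine (TOP) tract, through which mTOR signalling and the protein LARP1 control their translation. Blood formation is sensitive to their dose: loss of 1 copy of several of these genes causes Diamond-Blackfan anaemia, in which red cell precursors fail.

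The start sites of 6 members are shown because the pyrimidine tract there is a feature that the choice by name did not use. They are the 4 members of smallest p among those with a single listed start, then Rpl27, the single member above 0 on T1, and Rpl35, whose mean lay nearest to 0. Each sequence runs on the gene's strand from 40 bases before to 20 bases after the start listed by RefSeq (GRCm38.p6). Capitals mark the longest run of C and T that overlaps the 10 bases on either side of the start.
Rpl28: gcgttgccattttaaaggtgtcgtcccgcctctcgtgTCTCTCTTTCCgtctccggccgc
Rpl14: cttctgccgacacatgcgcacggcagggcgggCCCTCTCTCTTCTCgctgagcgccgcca
Rps4x: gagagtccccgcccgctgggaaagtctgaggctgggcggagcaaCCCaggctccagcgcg
Rpl15: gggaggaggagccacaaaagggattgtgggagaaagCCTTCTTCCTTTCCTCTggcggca
Rpl27: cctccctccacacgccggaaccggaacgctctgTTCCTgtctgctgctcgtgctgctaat
Rpl35: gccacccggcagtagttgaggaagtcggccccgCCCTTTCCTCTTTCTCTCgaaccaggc

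The windows lie at chr7:4792925-4792984 (plus strand, Rpl28), chr9:120571477-120571536 (plus, Rpl14), chrX:102189372-102189431 (minus, Rps4x), chr14:18270967-18271026 (minus, Rpl15), chr11:101442205-101442264 (plus, Rpl27) and chr2:39005112-39005171 (minus, Rpl35). The run is 11 bases long in Rpl28, 14 in Rpl14, 17 in Rpl15 and 18 in Rpl35, against 5 in Rpl27 and 3 in Rps4x. RefSeq promoters were listed for 33 of the 42 members. A run of at least 8 pyrimidines at the start was present in 17 of 33 (51.5%), against 15.8% of all 27025 genes with a listed promoter. The run was sought only around the listed start, whose position was not checked here. A member without a run there is thus not shown to lack a TOP tract. The sequence CTCTTTC, on the gene's strand from 40 bases before the start onward (90 bases), was present in 8 members (24.2%) against 1.43% of all genes, and can overlap that run. The letters CCGGAAG, the core of binding sites of ETS-family factors, were found on either strand of the 300-base promoters in 15 members (45.5%) against 9.93% of all genes, and can overlap the run on their reverse strand. Members with the pyrimidine run had median log2 ratios of -0.36, -0.07 and -0.04 on T1, T2 and T3. The 16 members with a promoter but no run had -0.35, -0.04 and -0.06, so the medians of these sets lay within 0.04 of each other on each array.

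On T1 the ribosomal protein genes lay together below 0, and on T2 and T3 they lay near the middle of all genes. The median log2 ratio of the 42 members was -0.34 on T1 (1.27-fold lower), -0.06 on T2 and -0.04 on T3. Over all 3462 genes the medians were -0.04, -0.12 and -0.06. Relative to the median of all genes, the members' median was therefore -0.30, 0.06 and 0.01 on T1, T2 and T3. The mean of the 3 arrays had a median of -0.15 over the members and -0.07 over all genes, and without T1 these became -0.04 and -0.08. Thus the side on which the members lay relative to all genes depended on T1.

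**Figure D1:**
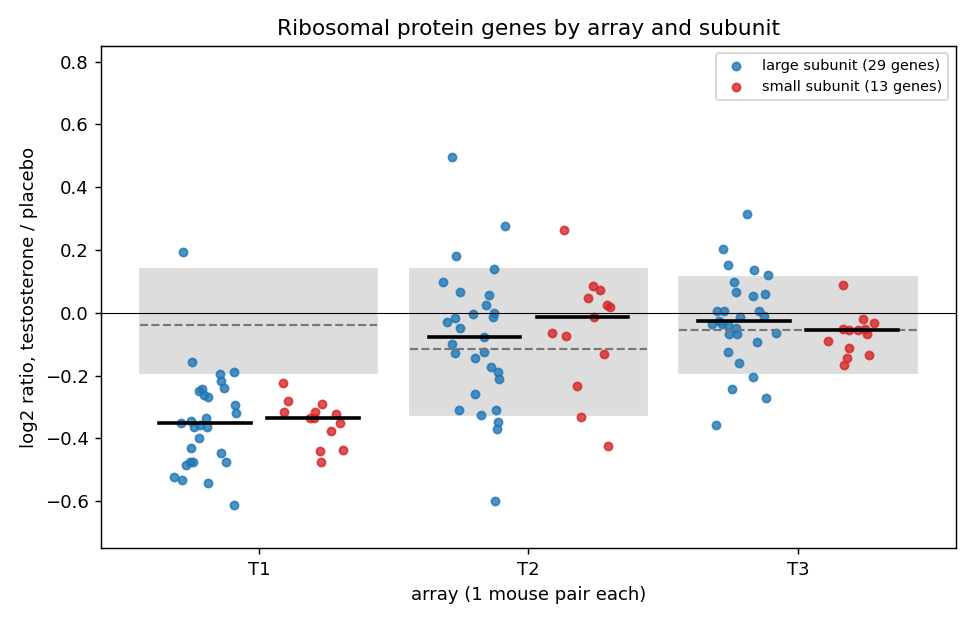
Log2 ratio of testosterone over placebo (vertical axis) of each ribosomal protein gene on arrays T1, T2 and T3 (1 mouse pair each), large subunit in blue and small subunit in red. Black bars are medians, grey boxes span the quartiles of all 3462 genes and dashed lines are their medians. On T1 the members' medians (-0.35 large, -0.33 small) lie below the grey box, and on T2 and T3 they lie inside it.

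Below 0 on T1 were 41 of the 42 members (97.6%), against 55.8% of all genes, and 39 lay below the first quartile of all genes on that array. On T2 the members below 0 were 27 (64.3%), against 63.2% of all genes, and on T3 they were 29 (69.0%), against 59.6%. Below the first quartile of all genes were 6 members on T2 and 4 on T3. Of the 3 arrays, T1 held the lowest value for 36 members, T2 for 4 and T3 for 2. Among all genes T1 was the lowest array for 33.2%. T1 and T3 share the dye orientation.

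Below 0 on all 3 arrays were 18 of 42 members, against 33.9% of all genes. The means over arrays were below 0 for 41 members, against 62.4% of all genes, and without T1 for 28 members (66.7%), against 62.6% of all genes. The count on T1 and the count of means share the T1 values.

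No member passed limma's moderated test with Benjamini-Hochberg adjustment over all 3462 genes (0 of 42 at an adjusted p of 0.05; smallest adjusted p = 0.0928). Over all genes 4.91% passed, 3.24% lower and 1.68% higher with testosterone. An unadjusted p below 0.05 was reached by 5 members (11.9%), against 28.1% of all genes. The 95% interval of a member's mean reached a median of 0.26 to either side on the log2 scale. With 3 arrays a two-sided exact test cannot give a p below 0.25. Nothing in the labels says whether the pairs were handled together. The p-values rest on a gene's spread between these 3 pairs, which limma moderates toward the spread shared over all genes.

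Large and small subunit genes had like medians on each array. On T1 the 29 large subunit genes had a median of -0.35 and the 13 small subunit genes -0.33, and on T2 these were -0.08 and -0.02. On T3 the medians were -0.03 for the large and -0.06 for the small subunit. The large minus small difference was -0.02, -0.06 and 0.03 on T1, T2 and T3, with both signs among the arrays. Over the means of the 3 arrays, the medians were -0.15 for each subunit. The small subunit genes were the more tightly grouped on T1, from -0.48 to -0.22, while the large subunit genes spanned -0.61 to 0.19. All 13 small subunit genes and 28 of 29 large subunit genes were below 0 on T1, against 55.8% of all genes. On T3, 12 of 13 small subunit genes and 17 of 29 large subunit genes were below 0, against 59.6% of all genes. Below the T3 median of all genes, -0.055, were 7 of the 13 and 10 of the 29.

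**Figure D2:**
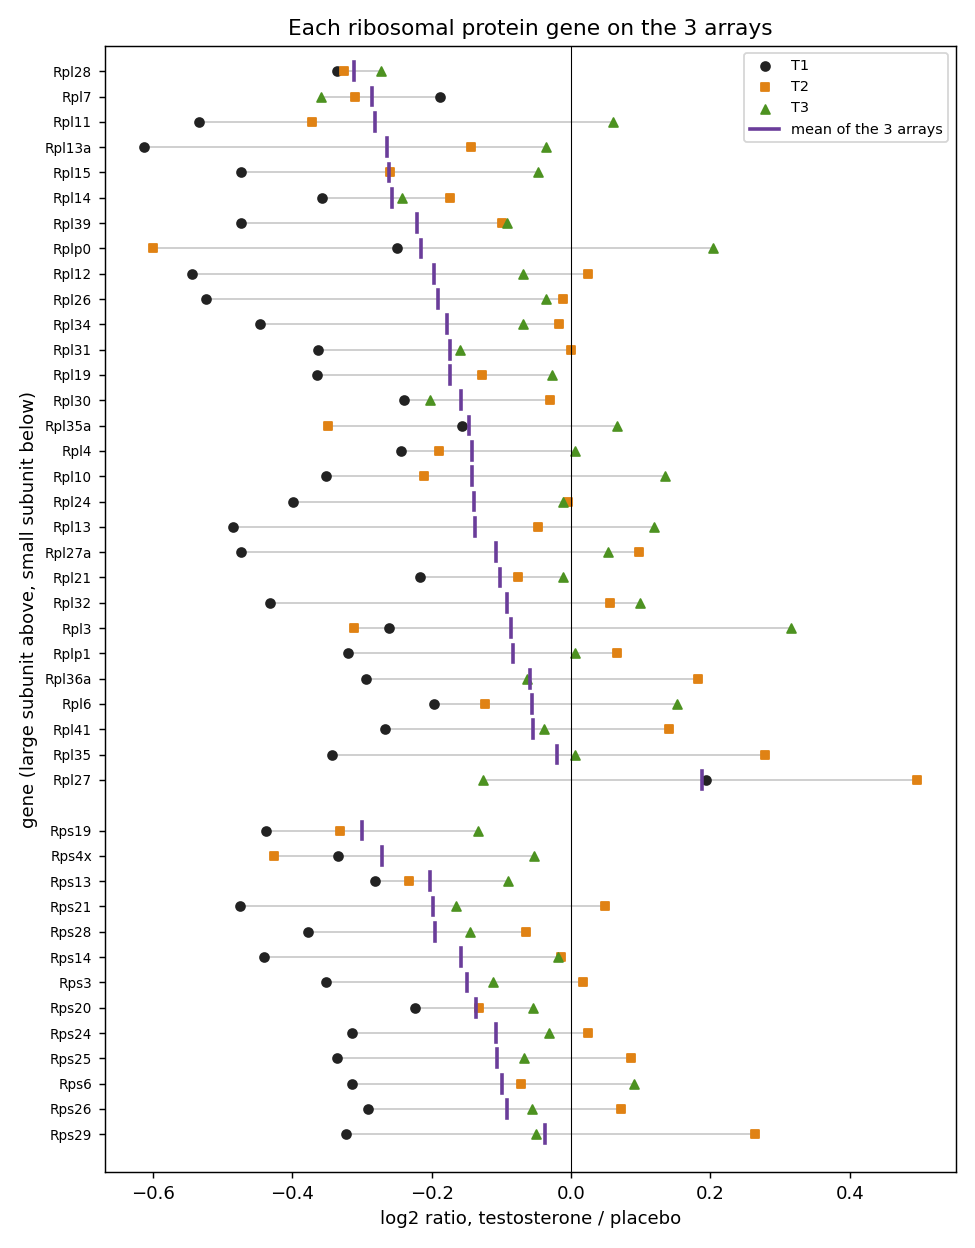
Log2 ratio of testosterone over placebo (horizontal axis) of the 42 ribosomal protein genes on T1 (black circles), T2 (orange squares) and T3 (green triangles), with the mean as a purple bar, ordered by mean within each subunit. T1 is the leftmost point for 36 of the 42 genes, and Rpl27 is the single gene with T1 above 0.

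In the large subunit, Rpl28, a protein with no bacterial counterpart, had the steadiest low value, with -0.34, -0.33 and -0.27 on T1, T2 and T3. Its mean was -0.31 ± 0.03 (SD, n = 3; 1.24-fold lower; adjusted p = 0.0928 by limma). Rpl28, which rests on 1 spot, was nearly the same in every pair, and it was the member with the smallest p. Its SD was below the pooled SD between spots of the same gene, 0.11, 0.17 and 0.13 on T1, T2 and T3. Whether Rpl28 is truly steadier than other members therefore cannot be told. Rpl7, an RNA-binding protein of the large subunit, had -0.19, -0.31 and -0.36 on T1, T2 and T3 (mean -0.29 ± 0.09, adjusted p = 0.117). Unlike most members, Rpl7 was highest on T1 and lowest on T3.

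Rpl14, which also has no bacterial counterpart, had -0.36, -0.17 and -0.24 on T1, T2 and T3 (mean -0.26 ± 0.09, n = 3, adjusted p = 0.146 by limma). Rpl15, another core protein of the large subunit, had -0.47, -0.26 and -0.05 (mean -0.26 ± 0.21, adjusted p = 0.183). Both were below 0 in every pair, with Rpl15 spread more widely. The most negative single value on T1 was that of Rpl13a, which is also known as a regulator of translation in inflammation, at -0.61. It stood at -0.14 on T2 and -0.04 on T3.

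Rpl11 belongs to the particle with 5S ribosomal RNA that binds Mdm2, through which faulty ribosome assembly activates p53. It had -0.53, -0.37 and 0.06 on T1, T2 and T3 (mean -0.28 ± 0.31, n = 3, adjusted p = 0.203 by limma). Its values differed in sign between pairs.

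The stalk is the flexible arm of the large subunit that recruits translation factors. Its base protein Rplp0 had -0.25, -0.60 and 0.20 on T1, T2 and T3, the widest range of any member (mean -0.22 ± 0.40, n = 3, adjusted p = 0.378 by limma). Rplp1, an acidic protein carried by Rplp0, had -0.32, 0.07 and 0.01 (mean -0.08 ± 0.21, adjusted p = 0.655; 0.036 without T1). Rpl12, which binds at the foot of the stalk, had -0.54, 0.02 and -0.07 on T1, T2 and T3. The 3 stalk genes were alike in sign on T1 and unlike on the other arrays.

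Genes for proteins that line the tunnel of the nascent chain or surround its exit (Rpl4, Rpl19, Rpl26, Rpl31, Rpl35 and Rpl39) lay from -0.52 to -0.24 on T1, with a median of -0.36. On T2 their median was -0.06 and on T3 -0.03. Rpl35 had -0.34, 0.28 and 0.01 (mean -0.02 ± 0.31, n = 3, adjusted p = 0.936 by limma), so that T1 and T2 nearly cancelled, and its mean without T1 was 0.14.

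Rpl27 stood apart, with 0.19, 0.50 and -0.13 on T1, T2 and T3 (mean 0.19 ± 0.31, n = 3, adjusted p = 0.376 by limma). It had the highest value of all members on T1 and on T2. Rpl27 rests on 1 spot, as do 26 of the 42 members, Rpl28 and Rps19 among them. Rpl41, the shortest of the ribosomal proteins, had -0.27, 0.14 and -0.04 (mean -0.06 ± 0.20, adjusted p = 0.776; 0.051 without T1). Rpl3, which reaches to the peptidyl transferase centre, had -0.26 and -0.31 on T1 and T2 and the highest member value on T3, 0.32. That value is from 1 spot, and spots annotated with both Rpl3 and Syngr1 had 0.10 and -0.02 on T3.

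In the small subunit, Rps19, the gene most often mutated in Diamond-Blackfan anaemia, had -0.44, -0.33 and -0.13 on T1, T2 and T3. Its mean was -0.30 ± 0.15 (SD, n = 3; 1.23-fold lower; adjusted p = 0.12 by limma). Every pair lay below 0. Rps4x, encoded on the X chromosome, had -0.33, -0.43 and -0.05 (mean -0.27 ± 0.19, adjusted p = 0.162). Rps13, which binds the RNA of the small subunit, had -0.28, -0.23 and -0.09 (mean -0.20 ± 0.10, adjusted p = 0.228). These 3 genes shared low values on both T1 and T2, which most small subunit genes did not.

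Rps28 had -0.38, -0.06 and -0.15 on T1, T2 and T3 (mean -0.20 ± 0.16, n = 3, adjusted p = 0.266 by limma). Rps21 had -0.48, 0.05 and -0.17 (mean -0.20 ± 0.26, adjusted p = 0.323). In both, T1 was the lowest pair and T2 the highest. Rps6 encodes a substrate of S6 kinases. Phosphorylation of that protein is a standard readout of mTOR signalling, but the arrays measured RNA alone. Rps6 RNA had -0.31, -0.07 and 0.09 (mean -0.10 ± 0.20, adjusted p = 0.586 by limma). Rps26, which lies at the exit of the messenger channel, had -0.29, 0.07 and -0.06 (mean -0.09 ± 0.18, adjusted p = 0.605). Rps29 had -0.32, 0.26 and -0.05 (mean -0.04 ± 0.29, adjusted p = 0.876). Without T1 the mean of each of these 3 genes was above 0, at 0.0088 for Rps6, 0.0080 for Rps26 and 0.11 for Rps29.

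Genes linked to Diamond-Blackfan anaemia were grouped after their values had been seen. The 12 taken were Rps19, Rps24, Rps26, Rps28, Rps29, Rpl11, Rpl15, Rpl26, Rpl27, Rpl31, Rpl35 and Rpl35a, and the set may not be complete. Their medians were -0.35, -0.0058 and -0.05 on T1, T2 and T3, against -0.34, -0.06 and -0.04 for all 42 members. On T1, 11 of 12 (91.7%) were below 0, against 97.6% of all members and 55.8% of all genes.

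The measured order of the members was not kept from pair to pair. Across the 42 genes, Pearson's r was 0.17 between T1 and T2, -0.04 between T1 and T3 and -0.15 between T2 and T3. Spearman's rho was -0.07, 0.05 and -0.11. Over all 3462 genes r was 0.43, 0.50 and 0.73 for the same pairs of arrays. These correlations are across genes, which are not independent replicates. The standard deviation among the members was 0.14, 0.21 and 0.13 on T1, T2 and T3, against 0.31, 0.44 and 0.31 over all genes. The members' spread was close to the pooled standard deviation between spots of the same gene, 0.11, 0.17 and 0.13. Whether their order truly differed between mice therefore cannot be told from these correlations.

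Genes with more than 1 spot gave a measure of the spread between spots within an array. Among the members, 16 had more than 1 spot, 14 with 2 and 2 with 4 (Rpl13a and Rpl41), and the other 26 rested on 1 spot. The pooled standard deviation between spots of the same gene was 0.11, 0.17 and 0.13 on T1, T2 and T3. On T1 all spots of each of the 16 genes had the same sign, and 61 of the 62 member spots were below 0. On T2 and on T3, 36 of 62 member spots were below 0, and the spots of 7 of the 16 genes agreed in sign. For most of these genes the spots come from different sequence records. The spread thus also holds differences between the printed sequences and is not array error alone. This spread is within an array, and it does not measure an offset shared by a whole array or mouse pair. The widest gap between spots of a gene was 0.39 on T1 and on T3, both for Rpl13a, and 0.48 on T2 for Rpl41.

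**Figure D3:**
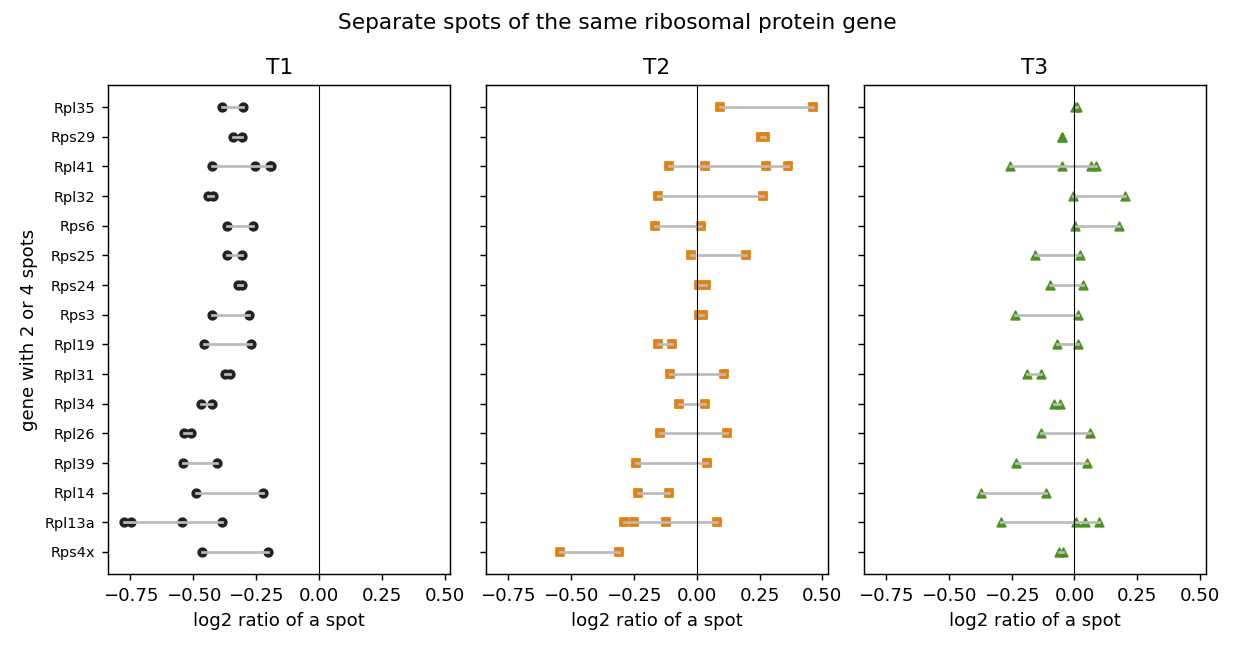
Log2 ratio (horizontal axis) of each separate spot of the 16 ribosomal protein genes with 2 or 4 spots, by array. Grey lines join spots of the same gene. On T1 every such spot lies below 0, while on T2 and T3 the spots of 9 of the 16 genes fall on both sides of 0.

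On T1 all 64 spots of ribosomal protein genes had a value, on T2 62 and on T3 63. Over all 11552 spots the shares with a value were 78.0%, 58.6% and 60.4%. The 2 genes of the name series without a value on all arrays were Rpl23 (-0.20 on T1, 0.05 on T3) and Rps15 (-0.10 on T1).

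Ribosomal protein spots that the choice of members did not use gave a second set of readings. Leaving out any spot annotated with Rpl32l, 17 spots were annotated with a ribosomal protein gene and a further gene, such as a pseudogene or a small nucleolar RNA. Of these 17, 15 had values on all arrays. They covered 14 genes, and 8 of these (Rpl9, Rpl10a, Rpl22, Rpl36, Rpl38, Rps2, Rps7 and Rps16) were not members. On T1 all 15 were below 0, from -0.52 to -0.19 with a median of -0.39. On T2 the median was -0.24 with 12 below 0, and on T3 it was -0.01 with 8 below 0. These spots thus shared the members' low T1 and middling T3, and lay lower than the members on T2. Ribosomal protein messages have many near-identical processed pseudogenes, so a spot's gene is uncertain.

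Ribosomal proteins that the name series misses were also below 0 on T1. Rpsa, a small subunit protein also known as the laminin receptor, had -0.34, -0.55 and -0.01 on T1, T2 and T3 (mean -0.30 ± 0.27, n = 3, adjusted p = 0.165 by limma). Fau, which encodes Rps30 fused to a ubiquitin-like protein, had -0.56, -0.24 and -0.16 (mean -0.32 ± 0.21, adjusted p = 0.121). Rpl36al, a retained copy of Rpl36a, had -0.17, -0.23 and 0.03. Of 3 pseudogene entries, Rpl27a-ps2 had 0.32, 0.48 and 0.27, Rpl10-ps3 had -0.17, 0.01 and 0.22, and Rpl27-ps3 had a value on T3 alone, 0.71.

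Other messages with TOP tracts, chiefly elongation and initiation factors, were below 0 more evenly over the pairs. Of 26 listed genes 19 were measured, and 0 passed by limma with adjustment over all genes (4.91% over all genes). An unadjusted p below 0.05 was reached by 10 of the 19, against 28.1% of all genes. Their median was -0.26, -0.27 and -0.13 on T1, T2 and T3. The initiation factor subunit Eif3h had -0.58, -0.46 and -0.21 (mean -0.42 ± 0.19, n = 3, adjusted p = 0.0658 by limma). Eif3f, another subunit, had -0.37, -0.48 and -0.27 (mean -0.37 ± 0.10, adjusted p = 0.068). On T2, where ribosomal protein genes had a median of -0.06, these messages were thus lower in value.

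Factors of ribosome assembly did not show the T1 shift in their median. Of 122 listed genes 34 were measured, with medians of -0.09, -0.01 and -0.09 on T1, T2 and T3. Of the 34, 1 passed, against 4.91% of all genes. It was the RNA helicase Ddx54, which fell by 0.52 on the log2 scale (± 0.13, n = 3, 1.44-fold lower, adjusted p = 0.0442 by limma). Ddx54 no longer passed when T3 was left out (adjusted p = 0.273), when T2 was left out (0.131) or once arrays were centred on their medians (0.0598). Genes of RNA polymerases I and III and their factors (15 of 45 measured) had medians of -0.19, -0.15 and -0.03. Of the 15, 1 passed, against 4.91% of all genes. It was Bdp1, a subunit of the polymerase III initiation factor, at 1.47 ± 0.98 (n = 3, adjusted p = 0.046 by limma), with 0.43, 1.62 and 2.36 on the arrays. Bdp1 did not pass under these settings either, with adjusted p = 0.255, 0.24 and 0.0535 in the same order. It also missed the threshold with robust eBayes (0.0894), with a dye term (0.0564) and with centring and scaling (0.0524), where Ddx54 passed. With the sign of T2 turned, 0 of all genes passed.

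Regulators of TOP messages, 10 of 26 measured, had medians of -0.12, -0.31 and -0.17. By limma 0 of the 10 passed, and 3 had an unadjusted p below 0.05, against 28.1% of all genes. The kinase Akt1 had -0.34, -0.94 and -0.40 (mean -0.56 ± 0.33, n = 3, adjusted p = 0.0555 by limma). Tia1, an RNA-binding protein that represses TOP messages under stress, had -0.23, -1.05 and -0.57 (mean -0.62 ± 0.41, adjusted p = 0.0584). Both were lowest on T2, where the ribosomal protein genes were not.

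Mitochondrial ribosomal proteins, which serve the separate ribosome of that organelle, had 25 of 29 genes measured. By limma 0 of the 25 passed, and 3 had an unadjusted p below 0.05, against 28.1% of all genes. Their medians were -0.15, -0.23 and -0.11 on T1, T2 and T3. Mrpl37 had -0.34, -0.42 and -0.18 (mean -0.31 ± 0.12, n = 3, adjusted p = 0.105 by limma) and Mrps27 -0.44, -0.18 and -0.32 (mean -0.31 ± 0.13, adjusted p = 0.108).

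**Figure D4:**
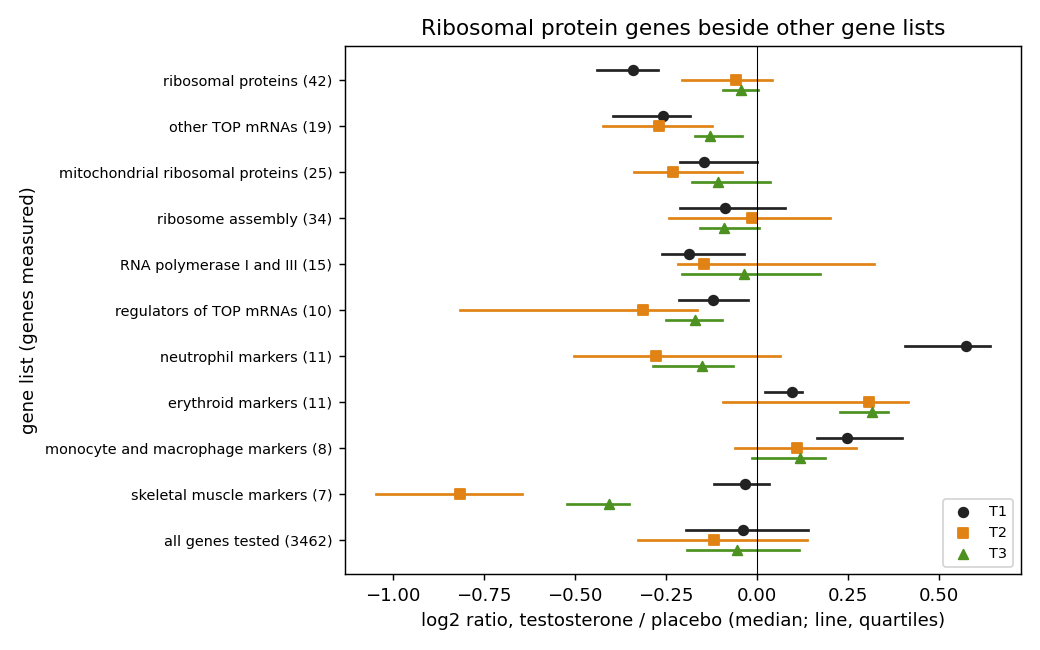
Median log2 ratio of testosterone over placebo (symbols, horizontal axis) and quartiles (lines) of gene lists on T1 (black), T2 (orange) and T3 (green), with the number of genes measured in brackets. Ribosomal proteins lie at -0.34 on T1 and near 0 on T2 and T3, while neutrophil markers lie at 0.58 on T1 and below 0 on T2 and T3.

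Markers of cell types also differed between the arrays. All 11 measured neutrophil markers were above 0 on T1, from 0.27 to 0.81 with a median of 0.58. On T2 their median was -0.28 with 4 of 11 above 0, and on T3 it was -0.15 with 0 above 0. By limma 0 of the 11 passed, against 4.91% of all genes, and 0 had an unadjusted p below 0.05, against 28.1%. Itgam, an integrin of myeloid cells, had 0.77, 0.29 and -0.07 (mean 0.33 ± 0.42, n = 3, adjusted p = 0.206 by limma). The array with the low ribosomal protein genes was thus the one with the high neutrophil markers, and their part in the result was not tested.

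B-lineage markers had low medians on every array, at -2.11, -2.16 and -1.60 for 10 genes. Of the 10, 0 were above 0 on T1, 2 on T2 and 1 on T3. Of the 10 genes, 7 passed as lower by limma and 0 as higher, against 3.24% and 1.68% of all genes. Il7r, the receptor for interleukin 7, was not among the 7 when T2 was left out (adjusted p = 0.0611 by limma). The B-cell receptor chain Cd79b, for example, fell by 2.11 (± 0.14, n = 3; adjusted p = 7.73e-05 by limma). Erythroid markers had medians of 0.10, 0.31 and 0.32 (11 genes), and monocyte and macrophage markers 0.25, 0.11 and 0.12 (8 genes). Megakaryocyte markers had medians of -0.17, -0.03 and 0.01 (4 genes). By limma 0 passed in each of these lists. An unadjusted p below 0.05 was reached by 3, 3 and 1 genes, against 28.1% of all genes. Skeletal muscle markers had medians of -0.03, -0.82 and -0.41 (7 genes). By limma 0 of the 7 passed, and 5 had an unadjusted p below 0.05, against 28.1% of all genes. Osteoblast and matrix genes had medians of 0.06, -0.75 and 0.00 (8 genes). Of the 8, 1 passed by limma, against 4.91% of all genes. It was Col6a1, with adjusted p = 0.107 without T2 and 0.17 without T3 by limma. T1 and the other arrays differed in muscle markers as well, and the part of these cell types in the ribosomal protein values was not tested.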

How the data were processed

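The authors deposited 1 signed log ratio per spot and array, read here as log2 from the range of the values, which does not settle the base. The direction was taken from the design text, which names testosterone as the experimental channel; that the ratio has it as numerator is not stated, nor are base, scaling, scanner, background correction and filters, in the sources used here. The values ran from -3.37 to 4.47, with column medians of 0.007, -0.062 and -0.025. They were used as deposited. Of 11552 spots, 8050 had 1 annotated gene, and Entrez IDs and the RefSeq table of GRCm38.p6 matched 7880. The 4554 matched spots with values on all 3 arrays were averaged to 3462 genes. Gene means were tested against 0 by two-sided moderated tests in limma 3.58.1 (R 4.3.3; lmFit, eBayes), Benjamini-Hochberg adjusted, threshold 0.05. The number of arrays limits the precision.

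Members and lists were chosen with earlier results of these data known. Named genes were, per subunit, the 5 of smallest p and the 3 of highest mean, plus Rplp0, Rplp1, Rplp2, Rps6, Rps19, Rpl5 and Rpl11 where measured. From other lists the members that passed, or else the 2 of smallest p, were eligible. Other members are named where they hold an extreme value or a role, chosen after their values were seen. Alternatives were the T2 sign turned, each array left out, a dye term, centring, scaling, other averages over spots, spots as units, robust eBayes, symbols as annotated, values on at least 2 arrays and a threshold of 0.10.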

Additional observations from a re-analysis of the deposited data

How the results depend on the processing

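The count of 0 members past the threshold was the same under every alternative but the threshold of 0.10, where 1 member, Rpl28, passed (2.38%, against 14.4% of all genes); leaving out each array gave 0 to 0. The large minus small subunit median, 0.0023, ran from -0.052 (without T3) to 0.0040 when each array was left out. The median of all members, -0.15, ran from -0.22 without T3 to -0.043 without T1, over 3 times nearer to 0; 3 arrays are too few for their spread to judge such a move. Of 216 values of the 18 named genes under 12 alternatives, 201 kept direction and side of the threshold and 15 changed sign, with adjusted p of 0.508 or above. Leaving out each array gave -0.17 to 0.14 for Rpl35, -0.15 to 0.051 for Rpl41, -0.19 to 0.11 for Rps29, -0.17 to 0.0080 for Rps26, -0.19 to 0.0088 for Rps6 and -0.16 to 0.036 for Rplp1, each highest without T1. With T2 turned the means were -0.14 for Rpl27, 0.013 for Rps4x and 0.18 for Rplp0. Median centring gave 0.049 for Rpl35, 0.015 for Rpl41 and 0.033 for Rps29; the dye term gave 0.054 for Rpl35 and 0.039 for Rps29; centring with scaling gave 0.016 for Rpl35. The cause of these changes was not tested. Each value is already a ratio within a mouse pair, so the tests against 0 were paired by design. With 1 group no further pairing could be added. Spot brightness was not analysed here, so signal over background could not limit the spots used. The alternatives called 0 to 623 of all genes, against 170, with 0 when T2 was turned, 33 to 35 without T3 or T2, and 623 without T1.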
